A study of Mus musculus with 8 samples.

Results

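The genes described here are 10 estrogen-regulated target genes, Greb1, Tff3, Xbp1, Ctsd, Nrip1, Stc2, Myb, Rara, Agr2 and Pdzk1, measured in 8 mouse mammary tumors. They were chosen by name, as genes known to respond to estrogen, and each was read from the row of the deposited table that names it alone. All 10 of 10 had such a row, 1 row each, among 14860 named genes in a table of 23332 rows. RNA of snap-frozen tumors from nulliparous female mice, 4 MMTV-Wnt1 and 4 MMTV-Wnt/ILK, was measured on Affymetrix Mouse Exon 1.0 ST arrays, each tumor on its own array. All 8 tumors carried the Wnt1 transgene, which the mouse mammary tumor virus (MMTV) promoter drives in the mammary epithelium, and both lines were on the FVB background. MMTV-Wnt/ILK tumors carried in addition a human ILK transgene under the same promoter, so that every control already expressed the Wnt1 oncogene. The age of the mice at the time of sampling was not given in the sources used here.

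Estrogen acts through ER-α, the product of Esr1, a nuclear receptor that binds palindromic estrogen response elements or joins other factors on DNA. FOXA1, the product of Foxa1, is a forkhead factor that opens chromatin for ER-α. Most of the targets named here are known from human ER-positive breast cancer cells, where estrogen raises secreted proteins such as TFF3 and STC2, the cofactor GREB1 and the corepressor NRIP1. In the mouse mammary gland, ER-α is found in hormone-sensing luminal cells, a subset of the epithelium. Transcripts were measured in whole tumors, so fewer cells of a type and less RNA per cell cannot be told apart.

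The start regions of these genes are shown for those members that the comparison with Esr1 and Foxa1 describes most. Stc2 had the highest r with each of them, Agr2 and Ctsd had the lowest, and Greb1 is a target widely used as a readout of ER-α in human cells. RefSeq start regions (GRCm38.p6) were found for 9 of the 10 members, in 15 windows of 250 bases before a start. Capitals mark half-sites of the estrogen response element, GGTCA or its complement TGACC. Sequences run 5′ to 3′ on the strand of the gene, at chr11:31370062-31370311 (minus) for Stc2, chr12:35992675-35992924 (plus) for Agr2, chr7:142387828-142388077 (minus) for Ctsd and chr12:16800887-16801136 (minus) for the first of 2 Greb1 windows.
Stc2: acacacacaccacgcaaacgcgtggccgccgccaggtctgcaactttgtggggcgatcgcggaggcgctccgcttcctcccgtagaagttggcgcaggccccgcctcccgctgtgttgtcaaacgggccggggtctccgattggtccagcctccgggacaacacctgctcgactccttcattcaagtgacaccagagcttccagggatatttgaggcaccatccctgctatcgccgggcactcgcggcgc
Agr2: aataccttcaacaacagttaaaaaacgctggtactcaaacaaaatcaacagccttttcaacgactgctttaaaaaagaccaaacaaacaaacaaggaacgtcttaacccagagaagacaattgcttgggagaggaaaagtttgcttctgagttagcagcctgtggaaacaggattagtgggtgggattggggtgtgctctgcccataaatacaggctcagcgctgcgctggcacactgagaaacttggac
Ctsd: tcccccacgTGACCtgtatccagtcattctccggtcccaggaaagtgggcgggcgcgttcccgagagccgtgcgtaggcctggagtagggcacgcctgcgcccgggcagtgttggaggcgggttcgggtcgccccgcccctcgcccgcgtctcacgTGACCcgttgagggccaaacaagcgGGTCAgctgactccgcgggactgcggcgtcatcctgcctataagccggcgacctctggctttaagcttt
Greb1: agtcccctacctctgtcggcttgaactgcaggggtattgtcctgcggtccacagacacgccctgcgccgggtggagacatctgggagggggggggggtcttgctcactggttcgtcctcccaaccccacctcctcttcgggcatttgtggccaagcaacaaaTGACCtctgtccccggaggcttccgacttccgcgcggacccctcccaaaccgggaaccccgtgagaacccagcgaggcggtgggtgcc

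Ctsd held 3 half-sites, 241, 94 and 69 bases before its start, and this Greb1 window held 1, 88 bases before. No half-site lay in the windows of Stc2 or Agr2. A half-site was found in 5 of the 9 members (Ctsd, Greb1, Nrip1, Pdzk1 and Rara) and in 6 of their 15 windows, against 35.2% of all 32851 windows. The full palindrome, GGTCA and TGACC with any 3 bases between them, so that it contains both half-sites, was in 0 member windows and in 0.0639% of all windows. A forkhead motif, TGTTTAC or GTAAACA, was likewise in 0 member windows and in 3.17% of all windows, and an AP-1 motif, TGAGTCA or TGACTCA, in 0 and 4.46%. GC boxes, GGGCGG or CCGCCC, were found in 7 of the 15 windows, of 5 members, against 32.7% of all windows. These matches describe letters in short windows only, and binding was not measured.

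Values are log2 expression values made by the authors with RMA, which subtracts background signal and combines a gene's probes into a single value, and with quantile normalization between chips. Array medians ran from 6.89 to 7.23 and lower quartiles from 5.50 to 5.62, and a gene below the lower quartile is called dim here. The luminal markers, 6 of 7 measured, had mean levels of 10.40 to 11.41 per tumor and the basal markers, 9 of 9 measured, of 8.94 to 9.91, all above the highest upper quartile of an array, 8.73. Some tumors stood apart in other cell types. Fat cell markers had a mean level of 8.38 in MMTV-Wnt1 tumor 2 and of 5.52 to 5.96 in the others. Fibroblast markers were at 7.39 in MMTV-Wnt1 tumor 3 and at 9.81 to 10.87 in the others. Skeletal muscle markers were at 8.19 in MMTV-Wnt1 tumor 1 and 9.04 in MMTV-Wnt/ILK tumor 3, and at 6.09 to 6.39 in the others.

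To ask whether targets of estrogen differed between the tumor types, the 4 tumors with the ILK transgene were set against the 4 without it. The members did not move together. The mean of Stc2 was higher with the ILK transgene and that of Tff3 lower, and the differences of the other 8 members had intervals that included 0. The mean was higher for 5 of the 10 members and lower for 5, at a median log2 fold change of -0.10, against -0.05 for all named genes. At an adjusted p under 0.05 (limma, a linear model with moderated variances, Benjamini-Hochberg adjustment over all rows), 0 of 10 members passed, as did 0 of 23332 rows (0.0%). At an unadjusted p under 0.05, 2 members passed with limma (Tff3 and Stc2) and 1 with an equal-variance test per row, while 5.11% of all rows passed with limma (2.91% higher and 2.21% lower). The adjusted p of the members ran from 0.905 to 0.993. For single genes the 70 ways to assign the tumors were also enumerated in an exact 2-sided permutation test, whose smallest possible p is 0.029. The study describes the tumors of each model as independent, but the labels do not name the animals, and the p-values cover the spread between these tumors. The plots of log2 values by tumor and of fold changes show all members.

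**Figure D1:**
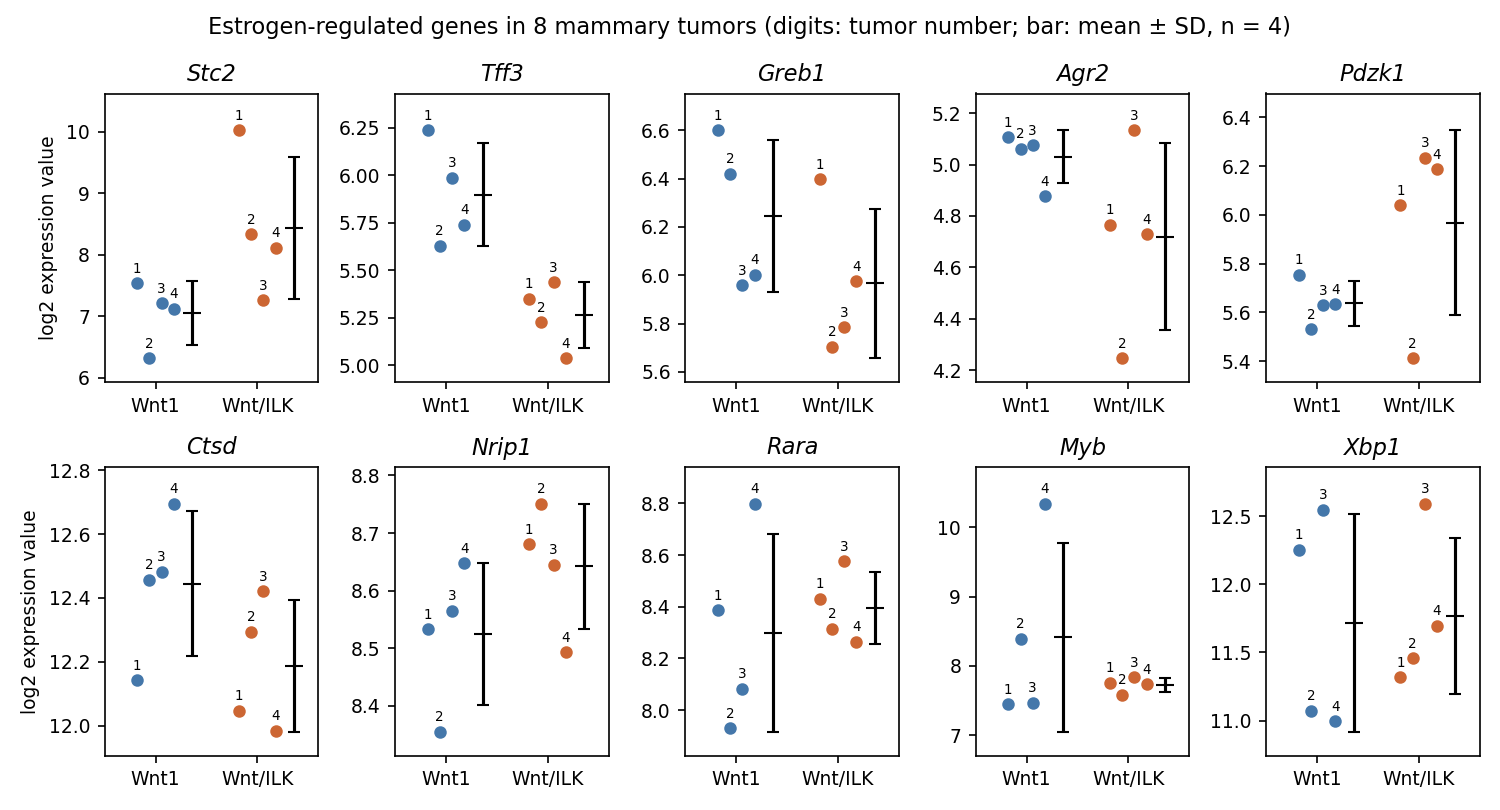
Log2 expression values (y axis, a different range in each panel) of the 10 estrogen-regulated genes in 4 MMTV-Wnt1 tumors (blue) and 4 MMTV-Wnt/ILK tumors (orange), with tumor numbers as digits and the mean ± SD as black bars. Tff3 is the only member whose groups do not overlap. Stc2 has its highest tumor at 10.02 and 3 MMTV-Wnt/ILK tumors above all MMTV-Wnt1 tumors, and Myb has a single high tumor at 10.35.

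**Figure D2:**
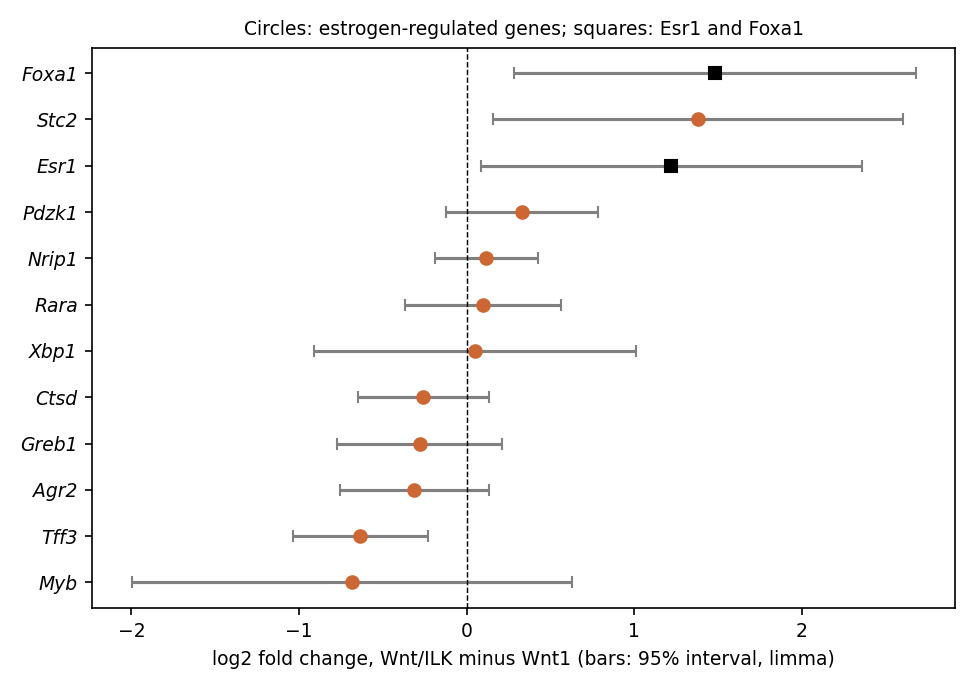
Log2 fold change of MMTV-Wnt/ILK against MMTV-Wnt1 tumors (x axis) for the 10 genes (circles) and for Esr1 and Foxa1 (squares), with 95% intervals from limma as bars. The interval of Stc2 lies above 0 (0.16 to 2.61) and that of Tff3 below 0 (-1.04 to -0.23), and the intervals of the other 8 members include 0.

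Among the secreted members, Stc2, which encodes the glycoprotein hormone stanniocalcin 2, varied most. Its log2 values were 7.54, 6.32, 7.21 and 7.12 in MMTV-Wnt1 tumors 1 to 4 and 10.02, 8.33, 7.26 and 8.11 in MMTV-Wnt/ILK tumors 1 to 4. MMTV-Wnt/ILK tumors 1, 2 and 4 lay above all MMTV-Wnt1 tumors, and tumor 3 lay among them. The group values were 7.05 ± 0.52 and 8.43 ± 1.16 (SD, n = 4 each), a 2.61-fold difference on the linear scale. The log2 fold change was 1.38 (SE 0.54, limma adjusted p = 0.905, exact permutation test p = 0.057). Without MMTV-Wnt/ILK tumor 1, its highest, it was 0.85. Over the 8 tumors the SD of Stc2, 1.11 on the log2 scale, was larger than that of 98.5% of named genes.

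Tff3, a trefoil factor that protects mucosal surfaces, was at 6.24, 5.63, 5.99 and 5.74 in MMTV-Wnt1 tumors and at 5.35, 5.23, 5.44 and 5.04 in MMTV-Wnt/ILK tumors. The groups did not overlap, and all 4 MMTV-Wnt/ILK tumors were below the lower quartile of their array, so the size of the difference is uncertain. It was -0.64 on the log2 scale (SE 0.18, limma adjusted p = 0.905, exact permutation test p = 0.029). Among all rows, 1.42% separated the groups in this direction and 2.9% in either direction, and of the 10 members 1, Tff3, did. Earlier results of these data already showed this separation when the members were chosen.

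Agr2, a protein disulfide isomerase of the endoplasmic reticulum that is needed for mucin production, was dim on all 8 arrays. Its values were 5.11, 5.06, 5.08 and 4.88 in MMTV-Wnt1 tumors and 4.77, 4.25, 5.13 and 4.73 in MMTV-Wnt/ILK tumors. MMTV-Wnt/ILK tumors 1, 2 and 4 lay below all MMTV-Wnt1 tumors, and tumor 3 above them. The difference was -0.31 on the log2 scale (SE 0.20), and -0.15 without MMTV-Wnt/ILK tumor 2, and its size is uncertain at these low values. Beside these members, markers of goblet and secretory epithelial cells, 5 of 6 measured, had a mean level of 6.20 to 7.45 in MMTV-Wnt1 tumors and of 7.01 to 7.20 in MMTV-Wnt/ILK tumors, with 3 of them higher and 2 lower by their means. Their part in the values of Tff3 and Agr2 was not tested.

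The members that act with nuclear receptors differed little. Greb1, a cofactor of ER-α, was at 6.60, 6.42, 5.96 and 6.003 in MMTV-Wnt1 tumors and at 6.40, 5.70, 5.79 and 5.98 in MMTV-Wnt/ILK tumors. The groups overlapped, and the log2 fold change was -0.28 with a 95% interval from -0.77 to 0.21. Nrip1, a corepressor that binds ER-α in the presence of hormone, had the narrowest range of the members. It ran from 8.36 to 8.65 in MMTV-Wnt1 tumors and from 8.49 to 8.75 in MMTV-Wnt/ILK tumors, a log2 fold change of 0.12 (95% interval -0.19 to 0.42). Rara, a receptor for retinoic acid, ran from 7.93 to 8.80 and from 8.26 to 8.58, with a log2 fold change of 0.10 (95% interval -0.37 to 0.56). Without MMTV-Wnt1 tumor 2 its log2 fold change was -0.03. The width of these intervals leaves room for differences in either direction.

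Xbp1, a transcription factor of the unfolded protein response, split the tumors across the groups. It was at 12.25, 11.07, 12.55 and 11.00 in MMTV-Wnt1 tumors and at 11.32, 11.46, 12.59 and 11.70 in MMTV-Wnt/ILK tumors. MMTV-Wnt1 tumors 1 and 3 and MMTV-Wnt/ILK tumor 3 were thus the high ones, and the group difference was 0.05 (95% interval -0.91 to 1.01). Its sign turned without MMTV-Wnt1 tumor 2 (-0.17), MMTV-Wnt1 tumor 4 (-0.19) or MMTV-Wnt/ILK tumor 3 (-0.23). Myb, a transcription factor needed for blood cell formation, was at 7.44, 8.39, 7.46 and 10.35 in MMTV-Wnt1 tumors and at 7.76, 7.58, 7.83 and 7.73 in MMTV-Wnt/ILK tumors. MMTV-Wnt1 tumor 4 was far above the rest, and the log2 fold change of -0.69 (SE 0.58) was -0.04 without it. In that tumor the mean level of the T and NK cell markers, 7 of 8 measured, was 6.14, within the range of 5.98 to 6.70 over all tumors. That of the B and plasma cell markers, 5 of 7 measured, was 6.41, within 6.06 to 6.82. By their means 3 of these T and NK cell markers and 1 of the B and plasma cell markers were dim, so these levels could hide a difference. Chosen after their values were seen, Krt14, a basal keratin, was at 11.42 in that tumor and at 8.01 to 9.35 in the others, and Aldh1a3, a luminal progenitor marker that makes retinoic acid, was at 10.44 and at 6.82 to 9.22. Their lists did not stand apart. The mean level of the basal markers in that tumor was 9.37, within 8.94 to 9.91 over all tumors. That of the luminal progenitor markers was 8.98, within 8.84 to 9.53. Both lists also held markers at their lowest in that tumor, such as Myh11 (6.73) and Elf5 (9.96). Stra6, a retinol transporter, was at 11.24 there and at 6.54 to 10.41 in the others, and Cyp26a1, which degrades retinoic acid, was at 8.03 and at 4.65 to 6.84. Of the other measured retinoic acid response genes, Cyp26b1 was at 8.31 there and at 6.78 to 7.20 in the others. Crabp2 was at 9.19 there, within 8.42 to 10.75 over all tumors. The part of the cell types named beside Myb in its level was not tested.

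Ctsd, a lysosomal aspartic protease, was at 12.14, 12.46, 12.48 and 12.70 in MMTV-Wnt1 tumors and at 12.05, 12.29, 12.42 and 11.98 in MMTV-Wnt/ILK tumors. MMTV-Wnt/ILK tumors 1 and 4 lay below all MMTV-Wnt1 tumors, and the log2 fold change was -0.26 (95% interval -0.65 to 0.13). Macrophages are rich in this protease. Macrophage markers, 7 of 8 measured, had mean levels of 8.63 to 9.89 in MMTV-Wnt1 tumors and of 9.27 to 9.68 in MMTV-Wnt/ILK tumors, and 6 of the 7 were higher by their means with the ILK transgene, with 0 past an unadjusted p of 0.05 (limma). Their part in the level of Ctsd was not tested. Pdzk1, a scaffold protein with PDZ domains that holds membrane transporters, was at 5.75, 5.53, 5.63 and 5.63 in MMTV-Wnt1 tumors and at 6.04, 5.41, 6.23 and 6.19 in MMTV-Wnt/ILK tumors. MMTV-Wnt/ILK tumors 1, 3 and 4 lay above and tumor 2 below all MMTV-Wnt1 tumors, a log2 fold change of 0.33 (95% interval -0.12 to 0.79). Pdzk1 was below the lower quartile on 2 of the arrays and its mean was above that of 28.6% of rows, so the size of its difference is uncertain.

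To ask whether the targets followed the level of the receptor, each member was set against Esr1 and Foxa1 over the 8 tumors. Esr1 was at 8.90, 7.32, 8.05 and 7.97 in MMTV-Wnt1 tumors and at 9.58, 10.42, 8.08 and 9.06 in MMTV-Wnt/ILK tumors. Foxa1 was at 6.71, 6.08, 6.48 and 6.31 and at 9.02, 8.54, 6.25 and 7.69. In both genes MMTV-Wnt/ILK tumor 3 lay among the MMTV-Wnt1 tumors. Foxa1 left a gap between 5 tumors at 6.08 to 6.71 and 3 at 7.69 to 9.02, and no correlation was computed on either side of it. Esr1 and Foxa1 themselves went together (r = 0.90, rho = 0.90, exact permutation test over 40320 pairings, p = 0.0019 for r and 0.0046 for rho, and r = 0.91 without the 2 tumors farthest from the median of Esr1), so that the relations with each are not separate results. Of the 10 members, 4 had an r above 0 with Esr1 and 6 an r below 0, and the counts with Foxa1 were the same. The median r was -0.14 with Esr1 and -0.17 with Foxa1, against -0.12 and -0.14 for all named genes. The adjusted p of an r or a rho over the 8 tumors, or of an r over deviations, covers the 20 relations with these genes, and that of a slope covers all rows. Each p printed beside an r without the farthest tumors is unadjusted. The counts of members given later for that setting use p adjusted over the 20 relations.

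**Figure D3:**
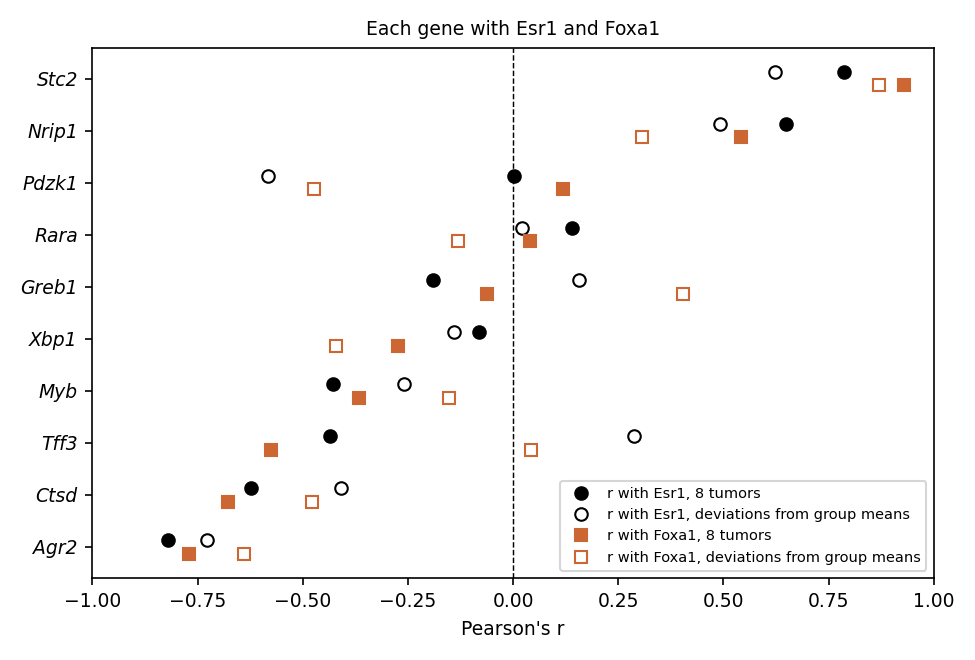
Pearson's r (x axis) of each of the 10 genes with Esr1 (black circles) and Foxa1 (orange squares) over 8 tumors (filled) and after taking deviations from the group means (open). Stc2 lies at the right with all 4 symbols, Agr2 and Ctsd at the left with all 4, and Tff3, Greb1 and Pdzk1 (with both) and Rara (with Foxa1) change sign between filled and open symbols.

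Stc2 followed Foxa1, with an r of 0.93 and a rho of 0.93 (exact permutation test, p = 9.92e-05 and 0.0022, adjusted p = 0.0020 and 0.022). Within the MMTV-Wnt/ILK tumors Stc2 fell in the order 1, 2, 4, 3, and Foxa1 fell in the same order. Within the MMTV-Wnt1 tumors both fell in the order 1, 3, 4, 2. By its r with Foxa1, Stc2 had rank 14 among 14859 named genes. The r was 0.88 without MMTV-Wnt/ILK tumors 1 and 2, which are farthest from the median of Foxa1 (exact permutation test, p = 0.025), and 0.87 over deviations from the group means (exact permutation test within the groups, p = 0.035, adjusted p = 0.67). In a limma fit on the Foxa1 level over all other rows the slope was 0.91 (SE 0.13, unadjusted p = 8.84e-05, adjusted p = 0.229). The slope was 0.89 (SE 0.20, unadjusted p = 0.0023, adjusted p = 1.00) with the group as a further term. At an unadjusted p under 0.05, 4.39% of rows had a slope on Foxa1 (2.09% positive and 2.3% negative) and 2.4% did with the group term. At an adjusted p under 0.05, 0.00429% did and 0.0% with the group term.

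With Esr1, Stc2 had an r of 0.79 and a rho of 0.98 (exact permutation test, p = 0.019 and 0.00040, adjusted p = 0.10 and 0.0079). The order of the 8 tumors was the same but for MMTV-Wnt/ILK tumors 1 and 2, which changed places, since tumor 2 had the higher Esr1 and tumor 1 the higher Stc2. The r was 0.88 without MMTV-Wnt1 tumor 2 and MMTV-Wnt/ILK tumor 2, which are farthest from the median of Esr1, and 0.62 over deviations from the group means (exact permutation test within the groups, p = 0.18). The slope on Esr1 was 0.87 (limma, SE 0.24, adjusted p = 0.957), where 3.99% of rows passed at an unadjusted p under 0.05, 2.01% with a positive slope, and 0.00429% at an adjusted p. With the group as a further term it was 0.67 (SE 0.32, adjusted p = 1.00), where 3.21% passed at an unadjusted p under 0.05. Markers of hormone-sensing luminal cells, 8 of 11 measured and Esr1, Foxa1 and Pgr among them, had mean levels of 7.19 to 7.55 in MMTV-Wnt1 tumors and of 8.66, 8.62, 7.25 and 7.89 in MMTV-Wnt/ILK tumors 1 to 4. Esr1 and Foxa1, the genes Stc2 was set against, thus enter this mean. Of the 8 markers, 7 were higher and 1 lower by their means with the ILK transgene, by unlike amounts. Cited1 and Wnt5a had log2 fold changes of 1.08 and 0.91, and Wnt4, Prom1 and Tnfsf11 of 0.22, 0.09 and -0.13. The part of hormone-sensing luminal cells in the level of Stc2 was not tested.

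Agr2 and Ctsd had the lowest r. The values of Agr2, dim on all 8 arrays, are of low reliability. It had an r of -0.82 with Esr1 and of -0.77 with Foxa1 (exact permutation test, p = 0.010 and 0.020, adjusted p = 0.10 for each), and a rho of -0.55 and -0.64 (p = 0.17 and 0.096). Among all rows, 1.98% had a negative slope on Esr1 at an unadjusted p under 0.05. The r with Esr1 was -0.59 without MMTV-Wnt1 tumor 2 and MMTV-Wnt/ILK tumor 2. MMTV-Wnt/ILK tumor 2, which had the highest Esr1, had the lowest Agr2. Ctsd had an r of -0.62 with Esr1 and -0.68 with Foxa1 (exact permutation test, p = 0.099 and 0.072, adjusted p = 0.28 and 0.27), and a rho of -0.76 and -0.69 (p = 0.037 and 0.069, adjusted p = 0.25 and 0.35). Its r was -0.91 without the 2 tumors farthest in Esr1 and -0.83 without those farthest in Foxa1 (exact permutation test, p = 0.031 and 0.026). Over deviations from the group means the r of Ctsd was weaker, at -0.41 with Esr1 and -0.48 with Foxa1 (exact permutation test within the groups, p = 0.34 and 0.28).

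**Figure D4:**
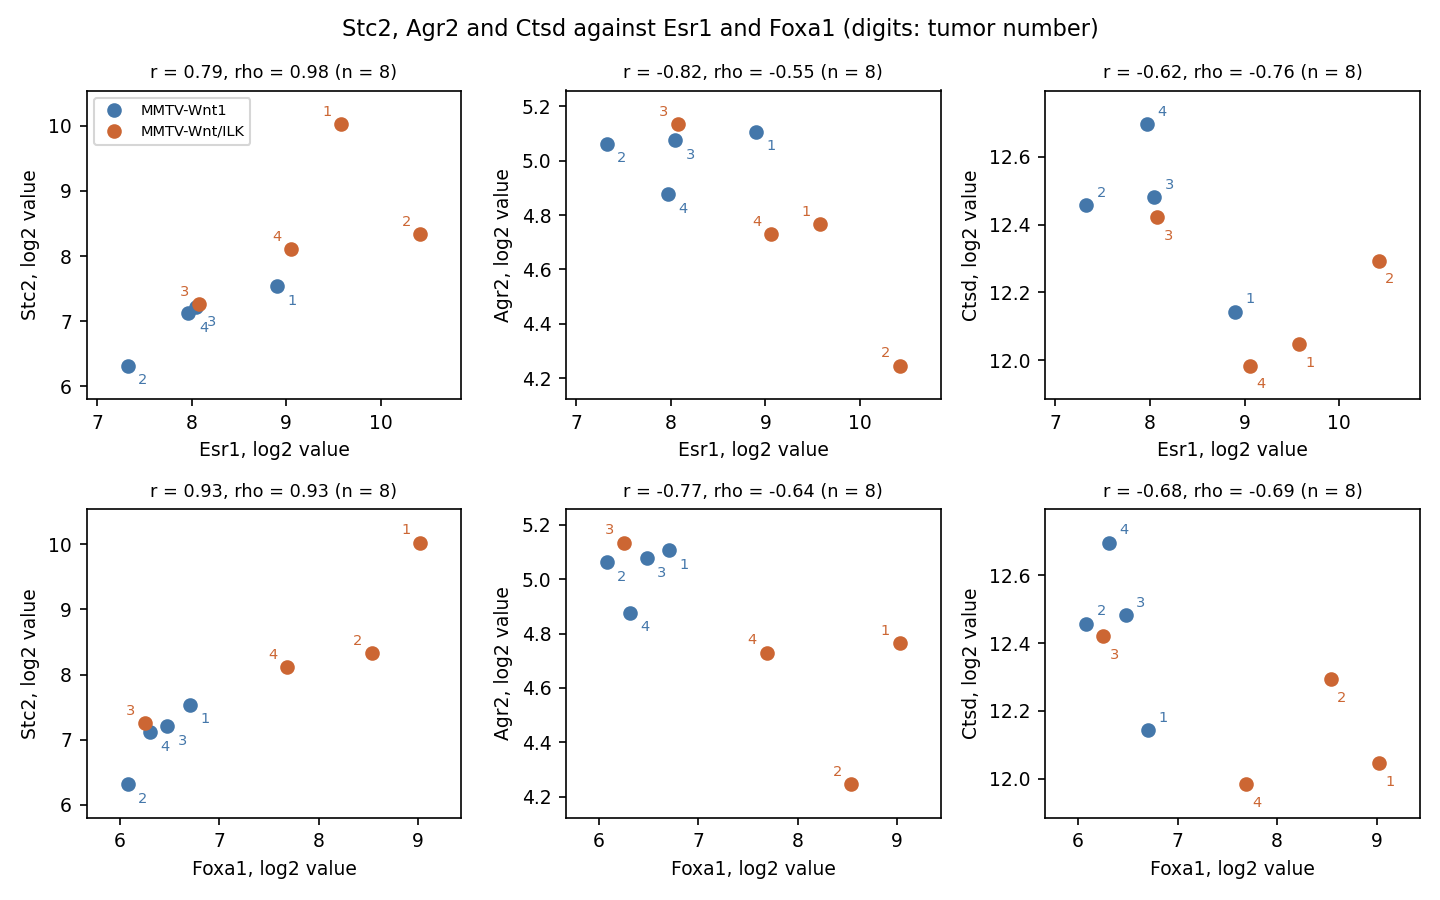
Log2 values of Stc2, Agr2 and Ctsd (y axes) against the log2 values of Esr1 (upper row) and Foxa1 (lower row, x axes) in 4 MMTV-Wnt1 tumors (blue) and 4 MMTV-Wnt/ILK tumors (orange), with tumor numbers as digits. Stc2 is higher where Foxa1 is higher (r = 0.93). With Esr1, r is -0.82 for Agr2, dim on all 8 arrays, and -0.62 for Ctsd (exact permutation test, adjusted p = 0.10 and 0.28). MMTV-Wnt/ILK tumor 3 lies beside the MMTV-Wnt1 tumors in every panel.

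Nrip1 had an r of 0.65 with Esr1 and 0.54 with Foxa1 (exact permutation test, p = 0.081 and 0.17, adjusted p = 0.27 and 0.39). Both rested on the farthest tumors, since r was -0.10 and -0.08 without them. For Tff3 the sign turned within the groups. Its r was -0.43 with Esr1 and -0.58 with Foxa1 over the 8 tumors, and 0.29 and 0.04 over deviations from the group means. Greb1 had an r of -0.19 with Esr1 and -0.06 with Foxa1, Xbp1 of -0.08 and -0.27, Rara of 0.14 and 0.04, Myb of -0.43 and -0.37, and Pdzk1 of 0.0032 and 0.12. None of these passed an unadjusted p of 0.05 by the exact permutation test. By r, 2 members passed that threshold with Esr1 and 2 with Foxa1 (Stc2 and Agr2 in each case), and after adjustment 0 passed with Esr1 and 1, Stc2, with Foxa1. By rho, Stc2 and Ctsd passed it with Esr1 and Stc2 with Foxa1, and after adjustment Stc2 passed with each. The share of all genes past this threshold by the permutation test was not computed. By the limma slope, 2 members, again Stc2 and Agr2, passed an unadjusted p of 0.05 with each gene. Among all rows, 3.99% did with Esr1 and 4.39% with Foxa1.

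The members were no more alike among themselves. Of their 45 pairs, 24 had an r above 0 and 21 below 0, the mean r was 0.03, and the mean over all pairs of named genes was 0.04. The highest r was 0.67, for Ctsd and Myb, and the lowest -0.68, for Ctsd and Stc2 (exact permutation test, p = 0.051 and 0.055, adjusted p = 0.78 for each over the 45 pairs). The genes most like each member by r over the 8 tumors were found among named genes with an SD at or above the median. For Stc2 they were Slc35f3, a member of a solute carrier family (r = 0.96), and Slc5a5, the sodium iodide symporter (r = 0.96). For Xbp1 they were B4galt1, a galactosyltransferase that takes part in lactose synthesis (r = 0.98), and Lao1, an L-amino acid oxidase (r = 0.97). For Myb they were Matn4, a matrix protein (r = 0.98), and the transcription factor Mitf (r = 0.98), and for Ctsd the desmosomal cadherin Dsc2 (r = 0.98) and the proton pump subunit Atp6v1e1 (r = 0.97). For the remaining members the gene in first place was Olfr1314 for Greb1 (r = 0.97), Gpr6 for Tff3 (r = 0.98) and Cstad for Nrip1 (r = 0.89). It was the olfactory receptor gene Olfr667 for Rara (r = 0.92), Tmem178b for Agr2 (r = 0.98) and Ptms for Pdzk1 (r = 0.95). Olfr1314 is an olfactory receptor gene as well. Each was picked as the highest of 7429 or 7430 genes compared over the same 8 arrays, and no test was run on them.

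Around these members, the other genes of estrogen signaling were described by list. Of 9 measured genes for estrogen receptors, pioneer factors and coregulators (13 in the list), the mean was higher for 7 and lower for 2 with the ILK transgene, at a median log2 fold change of 0.56, against -0.05 for all named genes. Besides Esr1 and Foxa1, Ncoa1, a coactivator of nuclear receptors, had a log2 fold change of 0.56 (SE 0.17) and lay higher in all 4 MMTV-Wnt/ILK tumors, as did 1.47% of all rows. Gata3, a luminal transcription factor, had one of 1.90 (SE 1.00), with MMTV-Wnt1 tumor 2 at 6.01 and the other tumors of that group from 9.47 to 11.26, and it was 0.77 without that tumor. Of 21 other estrogen-regulated genes measured (23 in the list), the mean was higher for 10 and lower for 11, at a median of -0.05, the same as for all named genes. Pgr, the progesterone receptor, was at 6.23, 7.09, 6.72 and 7.68 in MMTV-Wnt1 tumors and at 10.06, 9.13, 5.94 and 8.11 in MMTV-Wnt/ILK tumors, so that the same 3 tumors were high as for Stc2. Hspb8, a small heat shock protein, and Igf1r, a growth factor receptor, were lower by their means, at -1.05 (SE 0.45) and -0.57 (SE 0.22). Igf1r lay lower in all 4 MMTV-Wnt/ILK tumors, as did 1.42% of all rows, and was the only 1 of the 21 genes to do so. At an adjusted p under 0.05 (limma), 0 genes of either list passed, and 3 higher and 0 lower of the first list and 0 higher and 2 lower of the second passed an unadjusted p of 0.05, where 2.91% of all rows passed as higher and 2.21% as lower. Of the 3 higher genes, Esr1 and Foxa1 are the genes the members were set against, and the other is Ncoa1. The lists share genes, since Pgr is in both of these lists, and Tff1 in the second and among the relatives of the members.

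Genes related to single members were counted in the same way. Of 12 measured relatives of the members, such as other trefoil factors, stanniocalcin 1 and other retinoid receptors (13 in the list), the mean was higher for 6 and lower for 6. Rxra, the dimer partner of Rara, was at 9.30, 8.84, 8.79 and 8.88 in MMTV-Wnt1 tumors and at 9.73, 9.56, 9.36 and 9.90 in MMTV-Wnt/ILK tumors. The groups did not overlap, as in 1.47% of all rows in this direction, and Rxra was the only 1 of the 12 relatives without overlap. Its log2 fold change was 0.69 (SE 0.18, limma adjusted p = 0.905). Of 4 measured retinoic acid response genes (7 in the list), the mean was higher for 1 and lower for 3. Of 14 measured endoplasmic reticulum stress and folding genes, to which the targets of XBP1 belong (16 in the list), it was higher for 2 and lower for 12, at a median log2 fold change of -0.27, against -0.05 for all named genes. Plasma cells are rich in such genes, and of the B and plasma cell markers, 5 of 7 measured, 0 were higher and 5 lower by their means, at a median of -0.33, with Sdc1 at -0.42 and Mzb1 at -0.33. Their mean level was 6.41 to 6.82 in MMTV-Wnt1 and 6.06 to 6.67 in MMTV-Wnt/ILK tumors, and their part in the folding genes was not tested. Sdc1 was brighter than 94.3% of rows, and the other measured markers of this list were brighter than 7.95% to 39.8%. Sdc1 thus raises the mean level of the list, also where it is given beside Myb. Whether Sdc1 reads plasma cells in these tumors was not tested. Dnajb9, a chaperone induced by XBP1, had a log2 fold change of -0.44 (SE 0.24) and Herpud1, a protein of the degradation machinery, one of -0.51 (SE 0.31). After adjustment over all rows 0 genes of these 3 lists passed with limma, and 1 relative (Rxra), 0 retinoic acid response genes and 0 folding genes passed an unadjusted p of 0.05, where 5.11% of all rows did.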

How the data were processed

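The authors made the deposited log2 values from the scanned arrays with the RMA algorithm of ArrayAssist and quantile normalization between chips, per the labels and the methods. The log base is not stated, and log2 follows from how far the values reach. Of the rows, 14996 carry exactly 1 gene in the platform annotation, 1019 several and 7317 none, and symbols were updated through RefSeq. Array pairs with identical values numbered 0. The group difference and the slopes on Esr1 and Foxa1 were fitted over all rows with limma (version 3.58.1, R 4.3.3), without covariates unless stated. Both fits were tested on simulated data. Permutation tests used numpy 2.4.6 and scipy 1.17.1.

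The 10 members, the lists and the tests were chosen with earlier results of these data known. Genes could be named if they were members, Esr1 or Foxa1, among the 4 genes of a list with the smallest p, or among the 2 genes most like a member, and not all of these are named. Alternatives were an equal-variance test, a variance trend, array weights, a filter on the 25% dimmest rows, arrays centred on their medians, a second quantile normalization, a block for tumor number, the mean of a gene's rows (identical here, since each member has 1 row) and leaving out each tumor. The number of arrays limits the precision.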

Additional observations from a re-analysis of the deposited data

How the results depend on the processing

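No member passed an adjusted p of 0.05 under any of the 15 alternatives, and Agr2, a dim gene, is not tested when the dimmest 25% of rows are left out. At an unadjusted p under 0.05, 1 member passed with an equal-variance test per row. With array weights 4 passed (Tff3, Stc2, Ctsd and Pdzk1), and 1 to 3 did when each tumor was left out. Over all rows, 2607 passed that threshold with array weights and 727 (without MMTV-Wnt/ILK tumor 4) to 2010 (without MMTV-Wnt1 tumor 1) when each tumor was left out. At an adjusted p under 0.05, 0 to 13 rows passed, 13 of them without MMTV-Wnt/ILK tumor 2. Between 3 and 5 members had a higher mean when each tumor was left out, 3 without MMTV-Wnt1 tumor 2. The log2 fold change then ran from -0.23 to 0.33 for Xbp1, from -0.026 to 0.26 for Rara, from 0.85 to 1.78 for Stc2, from -1.01 to -0.04 for Myb, from -0.45 to -0.15 for Agr2, from 0.77 to 2.52 for Gata3, from -1.43 to 0.14 for Stra6 and from -0.47 to 0.65 for Cyp26a1. The cause was not tested.

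The counts of relations that follow are by r at a p under 0.05 adjusted over the 20 relations. With the 2 tumors farthest from the median left out, 1 member passed in the relation with Esr1 (Stc2, r = 0.88) and 0 with Foxa1 (Stc2, r = 0.88). Nrip1 then turned to -0.10 with Esr1 and -0.084 with Foxa1. Over deviations from the group means 0 passed with Foxa1 (Stc2, r = 0.87), and Tff3 turned to 0.29 with Esr1 and 0.042 with Foxa1. These settings leave fewer tumors or fewer permutations. When each tumor was left out, 0 to 1 members passed with Esr1, r of Stc2 ran from 0.70 to 0.93 with Esr1 and from 0.90 to 0.97 with Foxa1, and 2 to 5 members had an r above 0 with Foxa1. The tumor number as a replicate block gave Stc2 a log2 fold change of 1.38 with an adjusted p of 0.766 (limma) and changed no call of a member. Under it Esr1 no longer passed an unadjusted p of 0.05 and Ltf did, each at a limma adjusted p of 0.766. Deviations of same-numbered tumors correlated at 0.107, 0.132, 0.155 and -0.0041, and in 3 of 4 cases the best partner was the tumor of the same number, a hint from the data. Since 1 pair was below 0.1 and the labels name no shared litter or day, the tumors were not taken as pairs. Precision is limited by 4 arrays a group and, for Tff3, Agr2 and Pdzk1, by values near or below the lower quartile of the arrays.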
